A study of Homo sapiens with 9 samples.

Results

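The MHC class I antigen presentation genes described here were HLA-B, HLA-C, HLA-E, B2M, TAP1, TAP2, TAPBP, ERAP1 and NLRC5. They were taken by gene symbol from the lists of all libraries and make up 9 of the 27615 genes of the longest list. RNA-seq was performed on MDA-MB-231, a mesenchymal-like triple-negative breast cancer cell line, which the labels also describe as breast cancer tissue. The cells were treated with the vehicle DMSO, with rimonabant, an antagonist of the cannabinoid receptor CB1, or with TXX-1-10, a compound derived from rimonabant, with 3 libraries per treatment. No genetic change was made in any group, every group rests on this 1 cell line, and the labels give neither dose nor exposure time. A difference between the compounds can therefore not be told apart from a difference in dose or time. The labels do not say whether replicates came from separate cultures, so p-values measure the spread between these libraries, which may be technical. Because the RNA is from bulk cells, fewer cells with high expression and less RNA per cell cannot be told apart.

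MHC class I molecules show peptides from inside the cell to CD8+ T cells. A heavy chain such as HLA-B, HLA-C or HLA-E pairs with the light chain beta-2-microglobulin, encoded by B2M, in the endoplasmic reticulum. Peptides made by the proteasome enter that compartment through the transporter formed by TAP1 and TAP2, are trimmed by the aminopeptidase ERAP1, and are loaded with the help of tapasin, encoded by TAPBP. NLRC5 is a transactivator that acts at class I promoters, where the RFX, CREB/ATF and NF-Y factors bind the X and Y boxes. Interferons and NF-kappaB signalling are well-known inducers of these genes, and loss of class I is a common route of immune escape in tumours.

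The 9 genes lie in 4 regions of the genome in GRCh38. On chromosome 6, HLA-E spans chr6:30489467-30494205 on the plus strand, while HLA-C (chr6:31268749-31272130), HLA-B (chr6:31269491-31357188), TAP2 (chr6:32821833-32838780), TAP1 (chr6:32845209-32853978) and TAPBP (chr6:33299694-33314387) lie on the minus strand. B2M lies at chr15:44711487-44718877 and NLRC5 at chr16:56989485-57083531, both on the plus strand, and ERAP1 at chr5:96760810-96808100 on the minus strand. The annotated span of HLA-B runs over HLA-C, yet only 35 exonic bases belong to both. HLA-B also shares 542 of its 3051 exonic bases with the pseudogene AL671883.2 on the opposite strand. TAP2 shares 2064 of its 6390 exonic bases with the read-through gene AL669918.1 on the same strand, which had no line in the lists. TAP1 shares 456 of 4805 exonic bases with the antisense gene PSMB8-AS1. ERAP1 shares 551 of 7945 exonic bases with CAST and AC008906.1 on the opposite strand. The strand setting of the counting is not given in the sources used here, so reads of antisense partners cannot be told apart. Of all 100-base windows in the transcripts of HLA-B, HLA-C and HLA-E, 0, 4 and 15 were also found in transcripts of other genes, against 1967 of 6486 windows for TAP2. The reads were placed on 1 reference allele of each HLA gene, and how well this fits the alleles of the cell line was not tested.

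The promoter sequences are shown for the members whose levels moved furthest or that form a pair, as description only. RefSeq promoters (GRCh38.p14) were held for 7 of the 9 members, and HLA-E and NLRC5 had no entry. Each run gives the 200 bases before the start, 5′ to 3′ on the strand of the gene. Capitals mark matches, on either strand, to CCAAT (the Y box core), TGACG (the X2 box core), GAAA followed after any 2 bases by GAAA (the core of the interferon-stimulated response element), GGGANTTCC (a kappaB-like site), GGGCGG (the GC box) or the NF-kappaB consensus. The last of these was added after the data were seen and contains every match to GGGANTTCC shown here.
HLA-B (chr6:31357180-31357379, minus strand): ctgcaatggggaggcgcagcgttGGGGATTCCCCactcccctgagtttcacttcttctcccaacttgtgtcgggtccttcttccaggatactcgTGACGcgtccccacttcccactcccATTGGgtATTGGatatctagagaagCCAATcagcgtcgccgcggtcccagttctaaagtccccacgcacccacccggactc
HLA-C (chr6:31272093-31272292, minus strand): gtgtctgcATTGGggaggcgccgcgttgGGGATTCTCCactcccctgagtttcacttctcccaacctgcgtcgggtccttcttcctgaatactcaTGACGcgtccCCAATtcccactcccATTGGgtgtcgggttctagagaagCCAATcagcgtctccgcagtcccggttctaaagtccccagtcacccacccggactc
B2M (chr15:44711317-44711516, plus strand): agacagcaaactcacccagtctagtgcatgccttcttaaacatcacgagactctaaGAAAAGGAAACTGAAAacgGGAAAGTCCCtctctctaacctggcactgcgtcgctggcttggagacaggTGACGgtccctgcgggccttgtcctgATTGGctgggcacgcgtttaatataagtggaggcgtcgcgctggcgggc
TAP1, first start (chr6:32853705-32853904, minus strand): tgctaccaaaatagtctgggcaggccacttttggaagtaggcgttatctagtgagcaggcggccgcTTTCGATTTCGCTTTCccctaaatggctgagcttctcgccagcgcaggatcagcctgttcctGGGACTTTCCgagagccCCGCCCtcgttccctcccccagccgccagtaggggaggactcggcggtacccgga
TAP2 (chr6:32838740-32838939, minus strand): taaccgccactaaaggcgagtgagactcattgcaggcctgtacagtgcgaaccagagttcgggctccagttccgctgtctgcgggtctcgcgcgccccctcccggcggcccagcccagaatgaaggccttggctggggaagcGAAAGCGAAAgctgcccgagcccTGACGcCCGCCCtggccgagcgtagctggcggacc
TAPBP (chr6:33314079-33314278, minus strand): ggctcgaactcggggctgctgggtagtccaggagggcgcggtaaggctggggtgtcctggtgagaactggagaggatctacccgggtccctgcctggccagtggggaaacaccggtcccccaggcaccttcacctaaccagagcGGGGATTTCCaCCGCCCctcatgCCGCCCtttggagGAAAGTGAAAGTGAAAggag

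The HLA-B and HLA-C promoters shared TGACG, at -106 to -102 and at -105 to -101 before the start. Each had CCAAT at -56 to -52 and, on the opposite strand, at -81 to -77 in HLA-B and -80 to -76 in HLA-C. Matches to the NF-kappaB consensus lay between -177 and -167 in HLA-B and at -172 to -163 in HLA-C. Other matches differed between these promoters. The B2M promoter had TGACG at -75 to -71, CCAAT on the opposite strand at -49 to -45, and 2 overlapping interferon-response cores between -144 and -129. It also had the NF-kappaB consensus on the opposite strand at -125 to -116. Upstream of the first TAP1 start, 2 overlapping interferon-response cores lay between -134 and -119 and the NF-kappaB consensus at -72 to -63. TAP2 had 1 interferon-response core at -58 to -49 and TGACG at -35 to -31, and no match to the NF-kappaB consensus. The second starts of TAP1 and ERAP1 also had no match to that consensus, while the first ERAP1 start had it at -73 to -64. TAPBP had 2 overlapping interferon-response cores between -20 and -5 and the NF-kappaB consensus at -56 to -47. Over all 35116 RefSeq promoters, the 250 bases before the start held CCAAT in 32.0%, TGACG in 21.2%, the interferon-response core in 3.02%, GGGANTTCC in 1.59%, the GC box in 42.6% and the NF-kappaB consensus in 9.96%. A match describes letters in the window and no binding was measured.

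**Figure D1:**
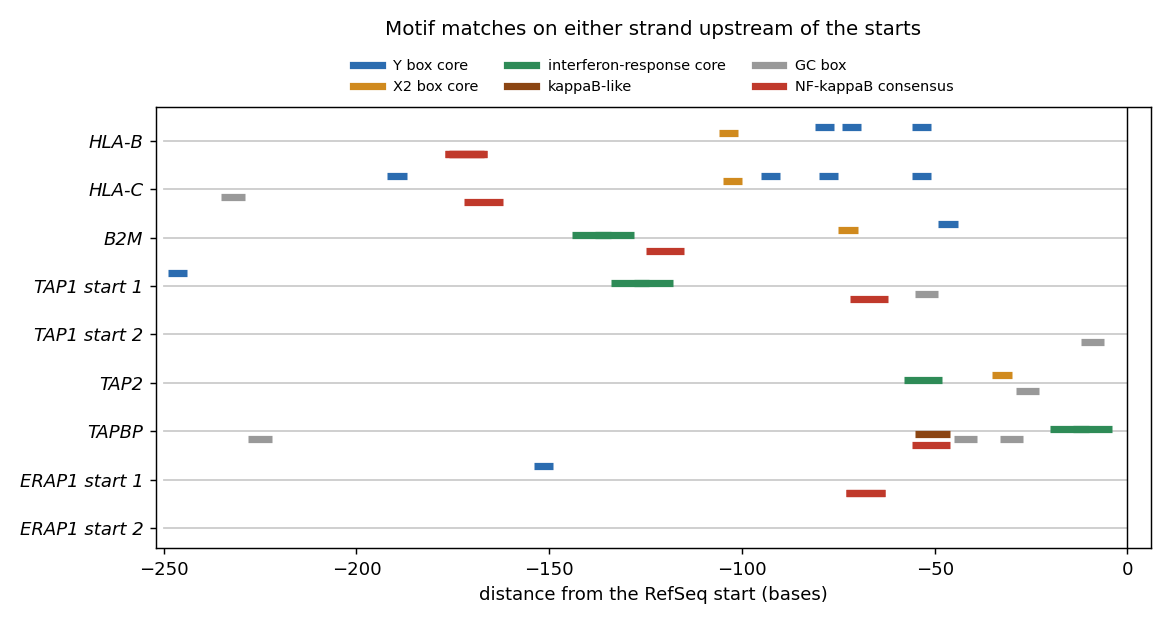
Motif matches on either strand in the 250 bases before each RefSeq start; the x axis is the distance from the start in bases, each row is a promoter and the colour gives the motif. TGACG lies near -106 in HLA-B and near -105 in HLA-C, at -75 in B2M and at -35 in TAP2, and the second ERAP1 start holds no match.

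Library totals ranged from 17078370 to 19277808 reads. In vehicle replicates 1 and 3 the counts listed add up to more than that total, 17492638 against 17078370 and 17383157 against 17221591, and which reads the total holds is not given in the sources used here. The list of every library breaks off partway, so that 6 members were listed in all 9 libraries and HLA-C, TAP1 and NLRC5 in the 8 libraries other than rimonabant replicate 1, and a missing line is not a count of 0. The 2 libraries rimonabant replicate 1 and TXX-1-10 replicate 3 stood apart. Their counts fell with gene length relative to the other libraries of the same treatment (Spearman's rho of -0.693 and -0.692 over 4237 genes). In the other 4 treated libraries rho was 0.477 to 0.667, and in the vehicle libraries -0.0251 to 0.0277. Each of those 4 was set against a mean that includes a library with the falling trend, so its rho is not independent of that library. Results that rest on the 2 libraries with the falling trend are given below with and without them. Levels are given in FPKM, the fragments counted on a gene scaled to its exonic length and to the library total. VIM, a defining marker of the mesenchymal-like state, lay between 224 and 329 FPKM in the 9 libraries. It did not pass the test described below against vehicle. Of the 5 mesenchymal-like markers tested, however, 1 rose and 3 fell with each compound. CAV1 fell most (log2 fold change -1.53 with rimonabant and -2.70 with TXX-1-10). Where listed, the highest marker of leukocytes was CD14 at 0.554 FPKM, of fibroblasts COL1A1 at 0.798 FPKM and of luminal epithelium EPCAM at 5.37 FPKM. These were listed in 5, 7 and 7 libraries. Only 7 of 12 leukocyte markers were listed anywhere. Vehicle replicate 2, rimonabant replicates 1 and 2 and TXX-1-10 replicate 1 listed none of them, so those libraries were not checked for leukocytes. The summed FPKM of the 5 mesenchymal-like markers listed in 8 libraries was 917 to 924 with vehicle, 707 to 735 with rimonabant and 720 to 796 with TXX-1-10, and its part in the results below was not tested.

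With TXX-1-10, RNA of the class I heavy chains, B2M, TAP1, TAPBP and ERAP1 was higher than with vehicle, whereas that of TAP2 and NLRC5 was lower. All 9 members passed the test, 7 of them higher and 2 lower (edgeR quasi-likelihood test, adjusted p under 0.05 with Benjamini-Hochberg over all genes of the fit). This has to be read against the background, because 74.4% of the 4236 genes in the fit of 9 libraries and 75.3% of the 9369 genes in the fit of 8 libraries passed too. Passing the test was therefore common, and the members' sizes and directions say more than their number. In the fit of 9 libraries 30.5% of all genes passed as higher and 43.8% as lower, and in that of 8 libraries 34.7% and 40.6%. The median log2 fold change of the 9 members was 0.52 against -0.0948 over all 4236 genes. A log2 fold change of at least 1 in size with an adjusted p under 0.05, the threshold of the study, was reached by 1 member, TAP2, compared with 11.8% of all genes in the same fit and 12.7% in the fit of 8 libraries. With the sum of the tested counts as library size, the median of all genes moved to 0.0764 and the share of passing genes that were higher moved from 41.1% to 57%. The 9 members passed in the same directions under that scaling and under TMM.

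With rimonabant, 5 of the 9 members passed the test against vehicle, HLA-E, TAP1 and TAPBP higher and TAP2 and NLRC5 lower. The background was 48.9% of genes in the fit of 9 libraries (23.7% higher and 25.2% lower) and 46.5% in that of 8 (23.7% higher and 22.8% lower). No member reached a log2 fold change of 1 in size, as against 1.13% and 1.49% of all genes. The median log2 fold change of the 9 members was 0.22, and that of all genes -0.0197. Here too the scaling moved the split of all passing genes, from 48.4% higher with the recovered totals to 64.6% with the sum of tested counts. Without rimonabant replicate 1 and TXX-1-10 replicate 3, 8 of the 9 members passed, 6 higher and 2 lower, and B2M was the exception. That fit also raised the background, to 68.6% of the genes listed in 9 libraries and 61.9% of those listed in 8.

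**Figure D2:**
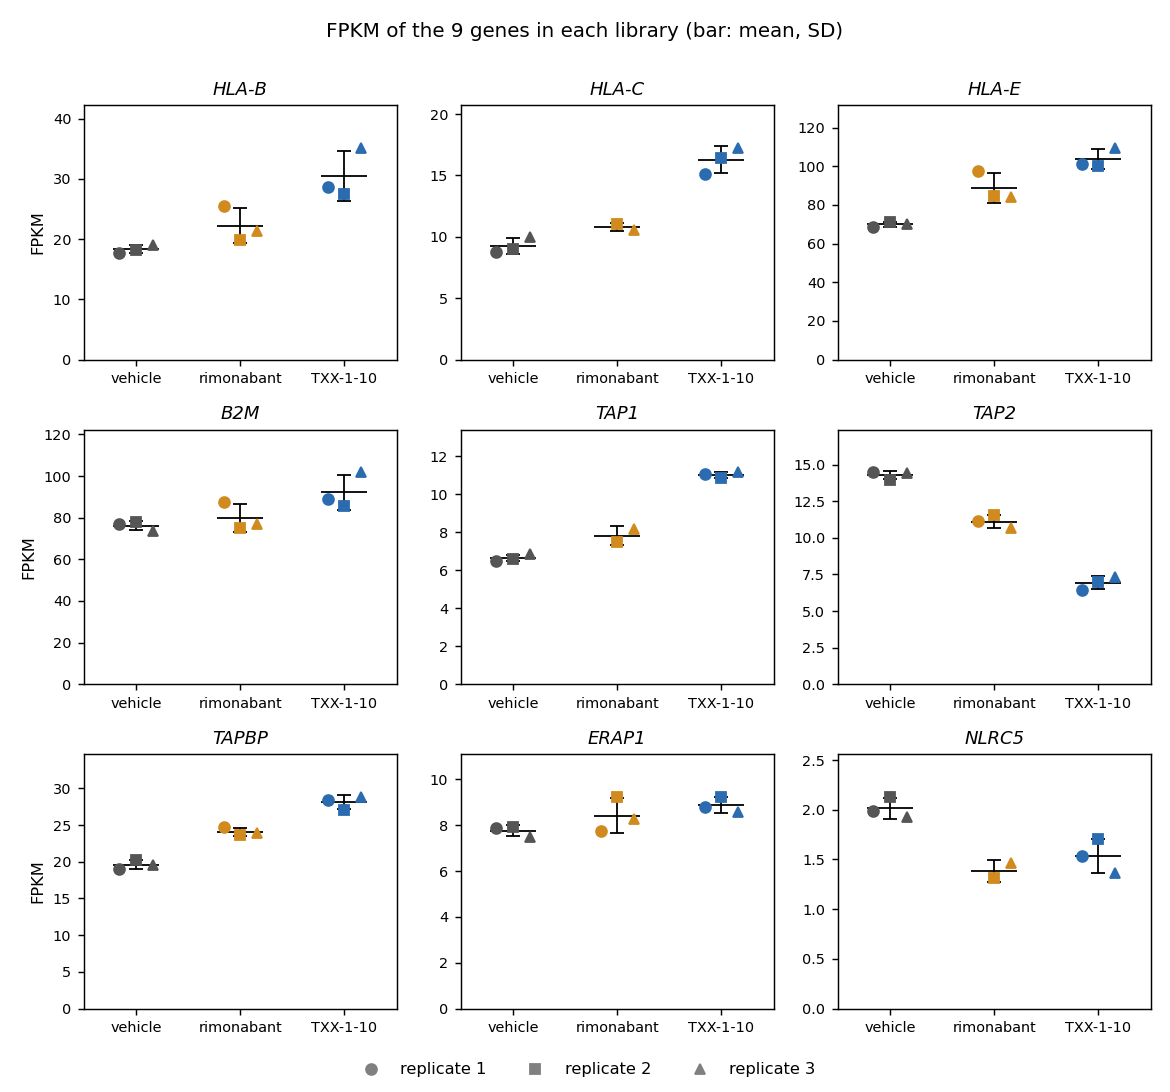
FPKM of each of the 9 genes (y axis, starting at 0) in each library, by treatment; points are libraries, with the replicate number as the symbol, and bars are the mean with SD. In HLA-B, HLA-C, HLA-E, TAP1 and TAPBP the 3 TXX-1-10 libraries lie above all others, and in TAP2 below all others. The share of all genes that separate in this way was not counted.

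HLA-B, one of the classical heavy chains, measured 17.7, 18.3 and 19.1 FPKM in the vehicle libraries, 25.5, 19.9 and 21.4 FPKM with rimonabant, and 28.7, 27.5 and 35.2 FPKM with TXX-1-10 (replicates 1 to 3 in each). The groups did not overlap, and within each treated group the library with the falling length trend was the highest. How often the groups separate without overlap over all genes was not counted, for this gene or for the members below. HLA-B rose 1.66-fold with TXX-1-10 (log2 fold change 0.73, SE 0.11, adjusted p = 0.00016), and the log2 fold change was 0.61 without TXX-1-10 replicate 3. With rimonabant the log2 fold change against vehicle was 0.28 (SE 0.11, adjusted p = 0.0634), and 0.17 without rimonabant replicate 1. This difference missed the threshold but passed it without rimonabant replicate 2 (adjusted p = 0.031) and without TXX-1-10 replicate 3 (adjusted p = 0.0182). In all, it passed in 10 of the 23 alternatives tried.

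HLA-C, the other classical heavy chain among the members, measured 8.78, 9.02 and 10.0 FPKM with vehicle, 11.02 and 10.59 FPKM in rimonabant replicates 2 and 3, and 15.1, 16.5 and 17.3 FPKM with TXX-1-10. All TXX-1-10 libraries lay above all others, and both rimonabant libraries above vehicle. The gene had the largest rise of the members with TXX-1-10, 1.75-fold (log2 fold change 0.81, SE 0.08, adjusted p = 1.0e-06). Against vehicle, the rimonabant value was 0.22 on the log2 scale (SE 0.09, adjusted p = 0.0561, 2 rimonabant libraries). It passed without vehicle replicate 3 (0.28, adjusted p = 0.0354) and without TXX-1-10 replicate 3 (adjusted p = 0.0163), and in 10 of the 23 alternatives in all.

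HLA-E, a nonclassical heavy chain recognised by the NK cell receptor CD94/NKG2A, was the most abundant heavy chain per length among the members. It measured 68.4, 71.0 and 70.2 FPKM with vehicle, 97.7, 84.6 and 84.1 FPKM with rimonabant and 101, 100 and 110 FPKM with TXX-1-10. The treatments did not overlap, although rimonabant replicate 1 came close to the TXX-1-10 libraries. HLA-E rose 1.27-fold with rimonabant (log2 fold change 0.34, SE 0.07, adjusted p = 0.0018) and 1.48-fold with TXX-1-10 (log2 fold change 0.57, SE 0.07, adjusted p = 2.19e-05). Both passed under every alternative tried.

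B2M, the light chain common to all class I molecules, measured 76.7, 77.9 and 73.7 FPKM with vehicle, 87.7, 75.2 and 76.8 FPKM with rimonabant and 89.0, 85.7 and 102 FPKM with TXX-1-10. The TXX-1-10 libraries lay above vehicle, while rimonabant overlapped both. B2M rose 1.21-fold with TXX-1-10 (log2 fold change 0.28, SE 0.08, adjusted p = 0.0091), a smaller rise than that of any heavy chain. The difference was 0.45 with the sum of the tested counts as library size and 0.20 without TXX-1-10 replicate 3, and it passed under all alternatives (adjusted p of up to 0.0375). With rimonabant the difference was 0.07 on the log2 scale (95% interval -0.11 to 0.25, adjusted p = 0.486), and it turned to -0.0018 without rimonabant replicate 1. The FPKM of B2M divides by 6079 exonic bases, whereas its coding transcripts are 933 to 1705 bases long, so its level per length relative to other genes depends on the annotation.

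The FPKM of B2M relative to the sum of HLA-B and HLA-E was lower in all treated libraries than in all vehicle libraries. This ratio was 0.862 ± 0.034 (SD, n = 3) with vehicle, 0.720 ± 0.0082 (SD, n = 3) with rimonabant and 0.687 ± 0.016 (SD, n = 3) with TXX-1-10. An exact two-sided permutation test gave p = 0.1 for each compound against vehicle, which is the smallest p that 3 against 3 libraries allow. HLA-E relative to HLA-B was 3.81 with vehicle and 4.01 with rimonabant, with overlapping libraries, and 3.43 with TXX-1-10, below all other libraries.

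TAP1 and TAP2, the subunits of the peptide transporter and neighbours in the genome, moved in opposite directions. TAP1 measured 6.51, 6.59 and 6.83 FPKM with vehicle, 7.47 and 8.16 FPKM in rimonabant replicates 2 and 3 and 11.1, 10.8 and 11.1 FPKM with TXX-1-10. TAP2 measured 14.49, 13.98 and 14.42 FPKM with vehicle, 11.1, 11.6 and 10.7 FPKM with rimonabant and 6.470, 7.002 and 7.338 FPKM with TXX-1-10. The libraries of the 3 treatments did not overlap in either gene, and rimonabant lay between vehicle and TXX-1-10 in both.

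TAP1 rose 1.66-fold with TXX-1-10 (log2 fold change 0.73, SE 0.06, adjusted p = 2.59e-07). With rimonabant it rose 1.18-fold (log2 fold change 0.23, SE 0.07, adjusted p = 0.0143), but the difference was 0.17 with adjusted p = 0.158 without rimonabant replicate 3, which leaves 1 rimonabant library that is assumed to vary like the other groups. TAP2 fell to 0.485 of its vehicle level with TXX-1-10 (log2 fold change -1.04, SE 0.06, adjusted p = 9.51e-08) and to 0.778 with rimonabant (log2 fold change -0.36, SE 0.06, adjusted p = 0.00059). Under all alternatives TAP2 passed in both comparisons, with log2 fold changes of -1.09 to -0.87 and of -0.39 to -0.29. The size with TXX-1-10 was under 1 in 8 of 23 alternatives, among them TMM, DESeq2, the gene length offset and the fit without TXX-1-10 replicate 1 (-0.996), so that the threshold of the study was reached in the other 15.

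The ratio of TAP1 to TAP2 in FPKM made the divergence plain. It was 0.465 ± 0.013 (SD, n = 3) with vehicle, 0.705 ± 0.084 (SD, n = 2) with rimonabant and 1.59 ± 0.10 (SD, n = 3) with TXX-1-10. TAP2 was the more abundant subunit per length in all vehicle and rimonabant libraries that list both genes, and TAP1 in all TXX-1-10 libraries. The groups did not overlap, and the exact two-sided permutation test gave p = 0.1 for TXX-1-10 against vehicle and p = 0.2 where rimonabant entered, in each case with so few libraries that no p under 0.05 could be reached. The part of the exons shared with AL669918.1 in the TAP2 values was not tested.

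**Figure D3:**
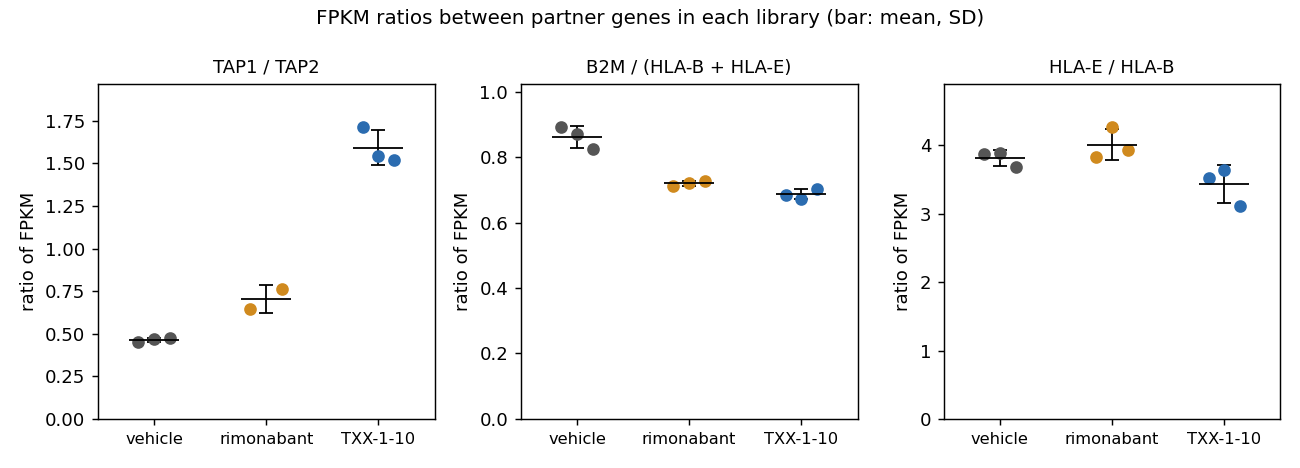
Ratios of FPKM between genes whose products work together, in each library (y axes start at 0); points are libraries, bars are the mean with SD. TAP1 relative to TAP2 goes from 0.465 with vehicle to 1.59 with TXX-1-10, and B2M relative to HLA-B plus HLA-E from 0.862 to 0.687.

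TAPBP, which holds empty class I molecules at the transporter, measured 19.0, 20.3 and 19.6 FPKM with vehicle, 24.7, 23.7 and 23.9 FPKM with rimonabant and 28.46, 27.03 and 28.84 FPKM with TXX-1-10. The 3 treatments were separated without overlap. It rose 1.23-fold with rimonabant (log2 fold change 0.30, SE 0.05, adjusted p = 0.00064) and 1.43-fold with TXX-1-10 (log2 fold change 0.52, SE 0.05, adjusted p = 3.38e-06), and passed in both under every alternative tried.

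ERAP1, the aminopeptidase that trims peptides in the endoplasmic reticulum, had the smallest rise of the members with TXX-1-10. It measured 7.89, 7.93 and 7.48 FPKM with vehicle, 7.74, 9.23 and 8.27 FPKM with rimonabant and 8.80, 9.24 and 8.56 FPKM with TXX-1-10. Rimonabant overlapped both other groups. With TXX-1-10 ERAP1 was 1.14-fold higher (log2 fold change 0.19, SE 0.07, adjusted p = 0.0275). That call was lost when any vehicle library, TXX-1-10 replicate 1 or TXX-1-10 replicate 2 was left out (adjusted p of 0.05004 to 0.09359). The rimonabant difference was 0.12 (95% interval -0.04 to 0.27, adjusted p = 0.19). It was 0.04 without rimonabant replicate 2 and passed with 0.14 under an offset for gene length (adjusted p = 0.0491), with 0.14 under that offset with the replicate block (adjusted p = 0.0438) and with 0.17 without both libraries with a falling length trend (adjusted p = 0.0109).

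NLRC5, the class I transactivator, was the least abundant member and the only regulator among them. It measured 1.99, 2.13 and 1.93 FPKM with vehicle, 1.31 and 1.46 FPKM in rimonabant replicates 2 and 3, and 1.54, 1.71 and 1.37 FPKM with TXX-1-10, on 305 to 455 reads per library. All treated libraries lay below all vehicle libraries. NLRC5 fell with rimonabant (log2 fold change -0.54, SE 0.11, adjusted p = 0.0014) and with TXX-1-10 (log2 fold change -0.39, SE 0.09, adjusted p = 0.0022). In the TXX-1-10 libraries RNA of the transactivator was thus lower while that of HLA-B, HLA-C, HLA-E, TAP1 and TAPBP was higher. The 2 comparisons share the vehicle libraries.

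**Figure D4:**
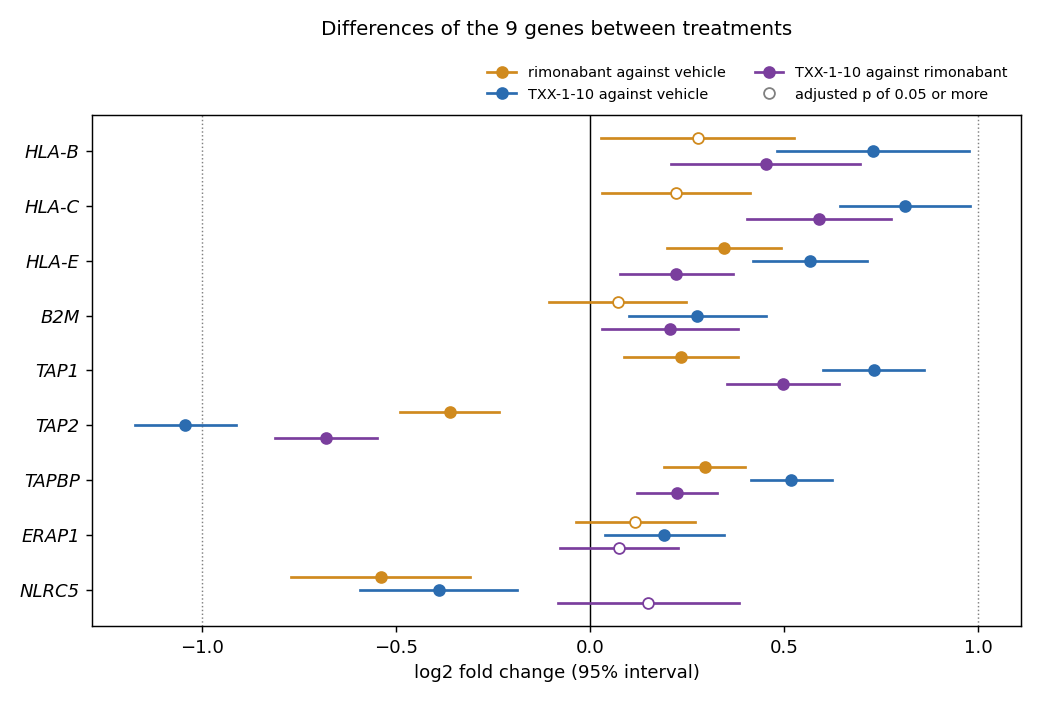
Log2 fold change (x axis) of each gene in 3 comparisons with its 95% interval; open circles mark an adjusted p of 0.05 or more and dotted lines a log2 fold change of 1 in size. TAP2 at -1.04 with TXX-1-10 is the one value past a dotted line, and TAP2 and NLRC5 lie left of 0 against vehicle.

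TXX-1-10 was also compared directly with rimonabant, where a difference between the compounds cannot be told apart from one in dose or time. Of the 9 members, 7 passed the test, with HLA-B, HLA-C, HLA-E, B2M, TAP1 and TAPBP higher and TAP2 lower with TXX-1-10. The background was 64.5% of genes in the fit of 9 libraries (25.1% higher and 39.4% lower) and 60.6% in that of 8 (26.7% higher and 33.9% lower). No member reached a log2 fold change of 1 in size, compared with 5.93% and 6.41% of all genes. The largest difference was that of TAP2, which was lower with TXX-1-10 by 0.68 (log2 fold change -0.68, SE 0.06, adjusted p = 4.27e-06).

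Among the genes that were higher with TXX-1-10 than with rimonabant, HLA-C differed by 0.59 (SE 0.08), TAP1 by 0.50 (SE 0.07) and HLA-B by 0.45 (SE 0.11) on the log2 scale, with adjusted p of 7.96e-05, 4.09e-05 and 0.0044. TAPBP differed by 0.22 (SE 0.05, adjusted p = 0.0018). HLA-E differed by 0.22 (SE 0.07, adjusted p = 0.0128), and by 0.18 with adjusted p = 0.0573 without rimonabant replicate 3. These 5 genes had no overlap between the 2 compounds, and the share of all genes that separate in this way was not counted.

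B2M differed by 0.21 (SE 0.08, adjusted p = 0.0418) although its libraries overlapped. Its call was lost when any library other than rimonabant replicate 1 or TXX-1-10 replicate 2 was left out, with log2 fold changes of 0.13 to 0.23 and adjusted p of 0.0573 to 0.129. For ERAP1 and NLRC5 no difference between the compounds was detected. The 95% interval of the log2 fold change was -0.08 to 0.23 for ERAP1 (adjusted p = 0.355) and -0.08 to 0.38 for NLRC5 (adjusted p = 0.246), so that differences within these bounds remained possible. NLRC5 passed without TXX-1-10 replicate 3 (0.23, adjusted p = 0.0425) and under quantile normalization with limma (0.21, adjusted p = 0.00999), while the difference was 0.07 without TXX-1-10 replicate 2 or without rimonabant replicate 2 (adjusted p of 0.608 and 0.698) and 0.09 with limma on log2(FPKM + 1).

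Genes whose levels ran closest to each member were sought as those with the smallest root mean square difference in log2(FPKM + 1), relative to the vehicle mean, over 9 libraries, for the 6 members listed in all of them. For HLA-B these were CTSD (0.0417), R3HDM4 (0.0564) and FAM50A (0.0565). HLA-E ran closest to TNIP2 (0.0338), MAPKAPK2 (0.0376) and JMJD6 (0.0391). B2M ran closest to RFK (0.0209), RPL30 (0.033) and RPL10 (0.0356). The 3 genes nearest to TAP2, ACO1 (0.0475), NAA15 (0.049) and SERBP1 (0.0503), fell with it, and ACO1 averaged 22.91, 18.18 and 11.04 FPKM with vehicle, rimonabant and TXX-1-10. TAPBP ran with PEA15 (0.0377), TMEM259 (0.0392) and DVL2 (0.043), and ERAP1 with ETS1 (0.0317), CELF1 (0.042) and MSN (0.0429).

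The surrounding pathway was described with gene lists, beside the same background of passing genes. Among other class I and class I-like heavy chains, 3 of 12 genes were tested, 2 of which rose and 1 fell with TXX-1-10. FCGRT, the neonatal Fc receptor for IgG and a partner of B2M, rose by a log2 fold change of 1.10 (SE 0.08, adjusted p = 5.85e-08). HFE, a class I-like protein of iron balance, fell (log2 fold change -1.01, SE 0.10, adjusted p = 2.19e-06). With rimonabant the same genes had log2 fold changes of 0.27 (adjusted p = 0.0233) and -0.41 (adjusted p = 0.0106).

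The genes that make the peptides did not share the rise of the heavy chains. Of the immunoproteasome subunits and the PA28 activator, 3 of 5 were tested and none rose with TXX-1-10. PSME2, a PA28 subunit, fell (log2 fold change -0.41, SE 0.07, adjusted p = 0.00019), while the catalytic subunit PSMB8 had 0.07 (SE 0.11) and PSME1 0.05 (SE 0.09), neither past the test. With rimonabant the values were -0.25 for PSMB8 (adjusted p = 0.118), -0.17 for PSME2 (adjusted p = 0.0912) and 0.05 for PSME1 (adjusted p = 0.7), none past the test. Of the 3 constitutive catalytic subunits, PSMB5 fell with TXX-1-10 (log2 fold change -0.42, adjusted p = 0.0031), and PSMB6 (-0.10) and PSMB7 (0.00) did not pass. Of 7 peptidases of the cytosol and endosomes, 5 fell and 0 rose with TXX-1-10, led by THOP1 at -0.93 (adjusted p = 9.7e-07), BLMH at -0.55 (adjusted p = 4.71e-05) and TPP2 at -0.35 (adjusted p = 0.0042). THOP1 encodes thimet oligopeptidase, which degrades peptides that could bind class I.

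Partners of the loading complex also did not rise with TXX-1-10. Of 4 tested of 6, CALR, the lectin chaperone of class I, fell (log2 fold change -0.22, SE 0.07, adjusted p = 0.0157), as did UGGT1, which senses the folding of glycoproteins (-0.79, SE 0.06, adjusted p = 9.11e-07). CANX (-0.02) and PDIA3 (-0.07) did not pass. With rimonabant CALR rose (0.23, adjusted p = 0.0199) and UGGT1 fell (-0.38, adjusted p = 0.0006).

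Transcription factors of class I promoters moved in both directions. Of 14 tested of 15, 5 rose and 4 fell with TXX-1-10, with a median log2 fold change of -0.0222. RFX5, which binds the X box with NLRC5, fell (log2 fold change -0.67, SE 0.05, adjusted p = 1.4e-06). NFYB, a subunit of the factor that binds CCAAT, fell as well (-0.81, SE 0.07, adjusted p = 3.44e-07). USF2, a binder of E boxes, rose by 0.60 (SE 0.08, adjusted p = 8.98e-05), and RELA, the p65 subunit of NF-kappaB, by 0.58 (SE 0.05, adjusted p = 2.28e-06). With rimonabant 3 factors rose and 3 fell, among them RFX5 at -0.33 (adjusted p = 0.00074) and RELA at 0.28 (adjusted p = 0.0013).

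Most of the tested interferon-stimulated genes were higher with TXX-1-10. Of 24 tested of 47, 17 rose and 5 fell, with a median log2 fold change of 0.4286, and without the 2 libraries with a falling length trend 17 rose and 6 fell. IFI44 rose by 1.74 (SE 0.07, adjusted p = 4.4e-10), IFIT2, an interferon-induced RNA-binding protein, by 1.61 (SE 0.07, adjusted p = 1.71e-08), and OASL, a member of the oligoadenylate synthetase family, by 1.21 (SE 0.09, adjusted p = 1.38e-07). GBP1, a guanylate-binding protein strongly induced by interferon gamma, went the other way (-2.38, SE 0.13, adjusted p = 5.88e-09). With rimonabant 6 rose and 7 fell, with a median of -0.0126, and OASL was lower than with vehicle (-0.73, SE 0.12, adjusted p = 0.00046). Between the compounds 13 of these genes were higher and 3 lower with TXX-1-10, OASL by the widest margin of the rises (1.94, SE 0.11, adjusted p = 3.33e-08).

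Signalling upstream of these genes was mixed. Of 11 tested of 15 interferon receptors and JAK-STAT genes, 3 rose and 4 fell with TXX-1-10. STAT2, which acts in the response to type I interferon, rose (log2 fold change 0.78, SE 0.04, adjusted p = 9.6e-08). SOCS3, a feedback inhibitor, fell by 1.19 with TXX-1-10 (log2 fold change -1.19, SE 0.06, adjusted p = 2.84e-09) and had 0.06 with rimonabant (adjusted p = 0.45). The kinase gene TYK2 fell with TXX-1-10 (-0.43, SE 0.06, adjusted p = 7.51e-05). With rimonabant 2 genes of this list rose and 1 fell.

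Of 8 tested NF-kappaB target genes of 9, 4 rose and 3 fell with TXX-1-10. CXCL8, the neutrophil chemokine, rose with both compounds, by 1.54 (SE 0.06) with TXX-1-10 and by 1.80 (SE 0.06) with rimonabant (adjusted p of 2.77e-10 and 6.1e-09). RELB rose by 1.46 (adjusted p = 1.32e-08) and 0.72 (adjusted p = 0.00013). BIRC3, an inhibitor of apoptosis, fell with both (-1.99 and -0.65, adjusted p of 1.76e-09 and 2.37e-05). ICAM1, an adhesion molecule for T cells, rose with TXX-1-10 (0.81, adjusted p = 2.21e-07) and fell with rimonabant (-0.24, adjusted p = 0.0038).

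**Figure D5:**
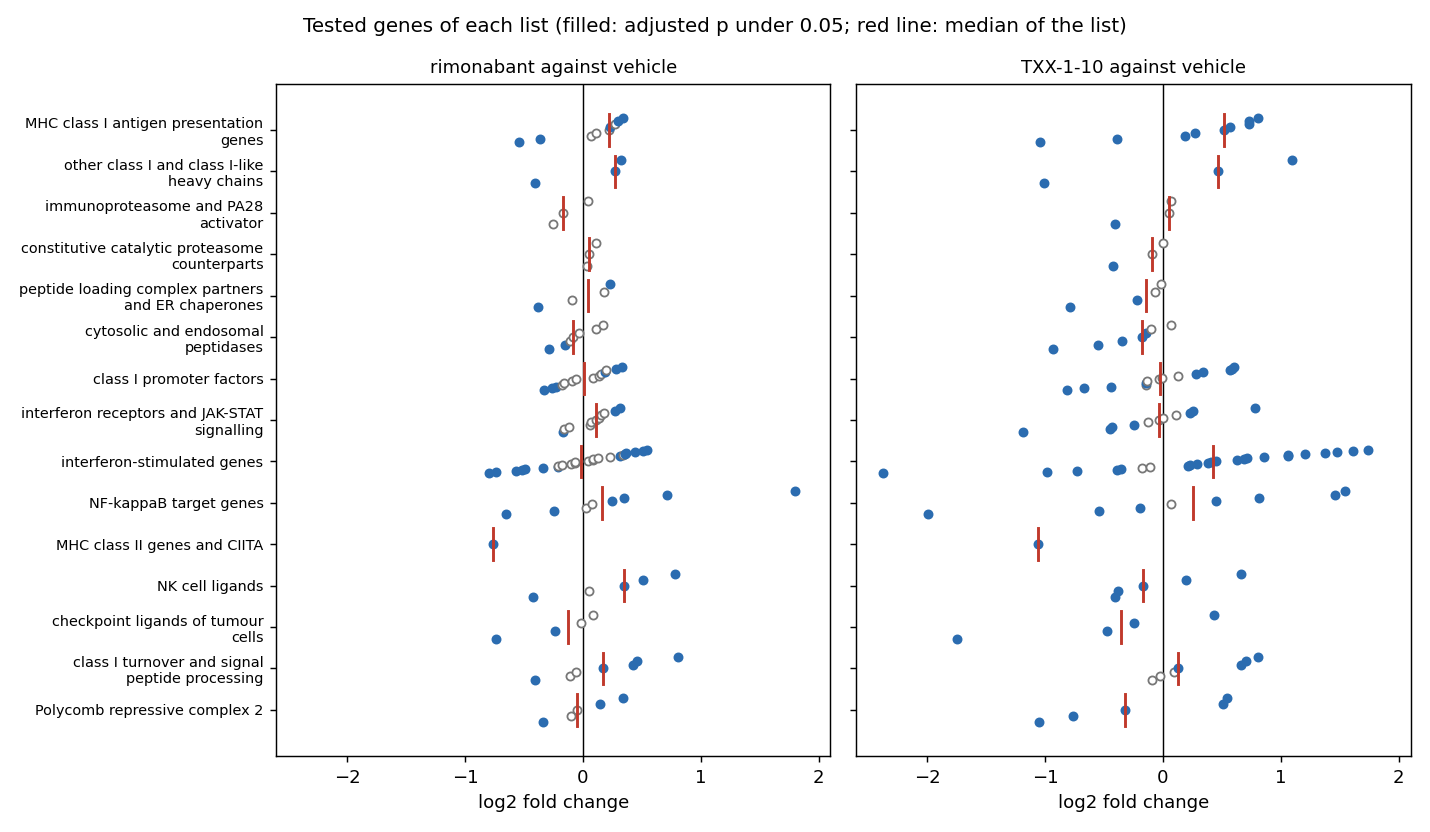
Log2 fold change (x axis) of each tested gene by list, for rimonabant and TXX-1-10 against vehicle; filled points passed the test and the red line is the median of the list. The class I genes have medians of 0.22 with rimonabant and 0.52 with TXX-1-10, the interferon-stimulated genes -0.0126 and 0.4286.

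Genes of other routes of immune recognition showed no single direction. Of 10 genes of MHC class II and CIITA, only CD74, the invariant chain, was tested, and it fell with TXX-1-10 (log2 fold change -1.06, SE 0.14, adjusted p = 2.49e-05) and with rimonabant (-0.77, SE 0.16, adjusted p = 0.0018). Of 5 tested of 11 NK cell ligands, 2 rose and 3 fell with TXX-1-10. MICA, a ligand of the activating receptor NKG2D, rose by 0.67 (SE 0.07, adjusted p = 2.74e-06) and by 0.78 with rimonabant (SE 0.08, adjusted p = 1.23e-05). Its relative MICB rose by 0.20 (adjusted p = 0.0111) and by 0.51 (adjusted p = 9.62e-05). ULBP2, another NKG2D ligand, fell with TXX-1-10 (-0.41, adjusted p = 0.0051) and rose with rimonabant (0.35, adjusted p = 0.0291).

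Among 4 tested of 7 checkpoint ligands, CD274, which encodes PD-L1, fell with TXX-1-10 (log2 fold change -1.74, SE 0.09, adjusted p = 2.53e-09) and with rimonabant (-0.74, SE 0.09, adjusted p = 5.16e-05). NT5E (-0.47, adjusted p = 3.98e-06) and CD47 (-0.25, adjusted p = 0.0021) fell and CD276 rose (0.44, adjusted p = 0.00019) with TXX-1-10. In the TXX-1-10 libraries CD274 RNA was thus lower while that of HLA-B, HLA-C and HLA-E was higher.

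Of 7 tested genes of 8 that act on class I turnover and signal peptide processing, 4 rose and 0 fell with TXX-1-10. SUSD6 and TMEM127, which take part in the degradation of class I, rose by 0.81 (SE 0.08, adjusted p = 1.31e-06) and 0.66 (SE 0.05, adjusted p = 1.31e-06), and with rimonabant by 0.81 (adjusted p = 2.24e-05) and 0.46 (adjusted p = 8.59e-05). SPPL3, an intramembrane protease, rose by 0.71 (SE 0.06, adjusted p = 3.05e-06) with TXX-1-10 and by 0.42 with rimonabant (adjusted p = 0.00047). Polycomb repressive complex 2, which can silence class I genes in tumours, had 2 genes higher and 3 lower with TXX-1-10. EED (-1.05, SE 0.07, adjusted p = 7.26e-08), EZH2 (-0.76, SE 0.05, adjusted p = 4.08e-07) and SUZ12 (-0.32, SE 0.04, adjusted p = 3.65e-05) fell, and EZH1 (0.51, adjusted p = 5.41e-06) and JARID2 (0.55, adjusted p = 0.00017) rose. With rimonabant EED had -0.05 (adjusted p = 0.623), and EZH2 rose by 0.14 (adjusted p = 0.0396).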

How the data were processed

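The 9 RNA-seq libraries came from MDA-MB-231 cells, with 3 per treatment (DMSO, rimonabant, TXX-1-10). Per the labels and methods, RNA was selected with oligo(dT) and reads were handled with HISAT2 2.0.5 and featureCounts 1.5.0-p3. The authors deposited whole-number counts per gene without normalization. Beside them the authors deposited FPKM, the count divided by gene length and a library total, which was recovered from both columns and used as library size. Its reads are not named in the sources used here. Each list breaks off partway, and its incomplete last line was dropped.

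edgeR 4.0.16 in R 4.3.3 (estimateDisp, glmQLFit, glmQLFTest, treatment as the only term) was fitted on 4236 genes listed in all 9 libraries and, for HLA-C, TAP1 and NLRC5, on 9369 genes listed in the 8 without rimonabant replicate 1, both with a mean FPKM of at least 1. The standard error is the log2 fold change divided by the square root of F, which is approximate. The common biological coefficient of variation was 0.0696 and 0.0604. On simulated counts the fits recovered 200 of 200 genes changed 3-fold for TXX-1-10 against vehicle, with 0 false calls. All members changed less than 3-fold, and recovery of such smaller changes was not tested, so this result does not bear on their calls.

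The members and lists were chosen with earlier results of these data known. From each list up to 4 genes with the largest log2 fold change among those past the test were named, and lists of up to 6 genes whole. Genes were placed with GENCODE release 29. Same-numbered libraries did not deviate together in a consistent way (correlations of -0.789 to 0.8, 1 of 9 over 0.1), so no replicate block was used. Between TXX-1-10 and rimonabant the correlations were -0.789, 0.8 and -0.59 for replicates 1 to 3. The part of the falling length trend in them was not tested, so this check cannot show that pairing was absent. Alternatives used limma 3.58.1 and DESeq2 1.42.0. Plots were drawn with matplotlib 3.10.9, and permutation tests run with scipy 1.17.1, in Python 3.11.15.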

Additional observations from a re-analysis of the deposited data

How the results depend on the processing

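Each of the 27 log2 fold changes of the members was recomputed under up to 23 alternatives, giving 618 values, of which 571 kept direction and side of the threshold, 16 lost the call, 28 gained it and 3 reversed. The reversed values were those of B2M, rimonabant against vehicle, at -0.0018 in the fit of 8 libraries, without rimonabant replicate 1 and without both libraries with a falling length trend, an alternative chosen after seeing the data. Over the libraries left out in turn this value ranged from -0.0018 to 0.11. NLRC5 could not enter under a mean FPKM of at least 5. With rimonabant against vehicle, 8 members passed under quantile normalization with limma, under the gene length offset and without both libraries with a falling length trend, where 55.3%, 59.7% and 68.6% of all genes listed in 9 libraries and 47.7%, 53.2% and 61.9% of those listed in 8 passed too. The cause was not tested. In the fit of 8 libraries, where more genes were tested, 1187, 140 and 601 genes changed for TXX-1-10 against vehicle, rimonabant against vehicle and TXX-1-10 against rimonabant, against 500, 48 and 251. When each library was left out in turn, the members past the test numbered 8 to 9, 4 to 7 and 5 to 7, and the genes changed 496 to 512, 47 to 52 and 245 to 260. With the replicate number as a block, 9, 5 and 6 members passed and 501, 48 and 250 genes changed. The block ended the call of B2M for TXX-1-10 against rimonabant (0.21, adjusted p = 0.0611) and no other member's call, as did fitting only the 2 groups compared (adjusted p = 0.0911). Genes with few reads are limited by depth, and members were counted on 305 to 11388 reads.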
